A study of Mus musculus with 16 samples.

Results

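Integrins are membrane receptors, each made of an alpha and a beta subunit, through which cells hold on to the extracellular matrix. At focal adhesions their tails bind talin and kindlin, and adaptor proteins and kinases join them to actin filaments and signal from them. The genes described here were taken from a fixed list of 46 symbols, 18 integrin subunits and 28 adaptors or kinases. Of these, 38 were found in the tables of all 3 cell types, among 16076 genes found there in all: 14 integrin subunits and 24 adaptor or kinase genes. Itga8, Itga9, Itgb6, Itgb8, Lims2, Tgfb1i1 and Tns4 were found in some tables only and are given with values outside these counts, and Ilk was not analysed here.

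The 16 libraries of total RNA came from mouse cells, 2 per group, and the series asked about genetic compensation for mutant genes. There were 3 genotypes of embryonic stem cells (ESCs), namely wild type, a knockout (KO) of Actb and a deletion of the full Actb locus (locus deletion, LD in the plots). Embryonic fibroblasts (MEFs) had the same 3 genotypes for Actg1. Cells labelled as kidney fibroblasts (MKFs) had a KO of Kindlin-2, and their controls carried the floxed gene, flanked by recombination sites. How the alleles were made, how the floxed gene was removed, and whether a line is 1 clone are not given in the sources used here, nor whether the 2 libraries of a group are separate cultures. P-values therefore measure only how far these libraries differ from each other, and that spread may be technical. All levels are normalised read counts, given for library 1 and then library 2. Where the libraries of 1 group are said to lie above, below or apart from another's, this describes the values and is not a further test. Fold changes and their standard errors (SE) were computed on log2(value + 1). A gene is said to have risen or fallen at an adjusted p below 0.05 in limma (Benjamini-Hochberg adjustment over every gene tested in the comparison). Shares of all genes that passed cover every gene with a mean of at least 1, low genes included. They are not matched to the levels of the adhesion genes or of the other lists.

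Summed values per library were 16022043 to 16529089 in ESCs, 20305511 to 22094490 in MEFs and 15565648 to 16324223 in MKFs. Actb, the gene of beta-actin, stood at 36364 and 34140 in wild-type, 23650 and 22707 in KO and 2372 and 2336 in locus deletion ESCs. Actg1, the gene of gamma-actin, stood at 5737 and 5672 in wild-type, 1004 and 1026 in KO and 25 and 15 in locus deletion MEFs. Fermt2, the gene of the integrin activator Kindlin-2, stood at 3078 and 3142 in floxed and 1251 and 1240 in KO MKFs. In each case every mutant library lay below every control library. The 6 pluripotency markers were all above 0 in the 6 ESC libraries, and the 8 fibroblast markers in the 6 MEF libraries. In the cells labelled kidney fibroblasts, 6 of the 8 fibroblast markers were in the table, and their summed level was 10.9 to 13.8 ppm of the library's summed values, close to the 10.3 to 14.0 of ESCs and far below the 1951 to 7420 of MEFs. Their 6 kidney epithelial markers summed to 351.6 and 360.4 ppm in the floxed libraries. Krt18, Pax8 and Cdh16 made up most of it, with Krt18 at 1945 and 2082, Pax8 at 2044 and 2126 and Cdh16 at 1510 and 1571, while Cdh1 (10 and 16), Epcam (26 and 11) and Krt8 (64 and 78) were low. The fibroblast markers did not bear out the labelled cell type, and the epithelial markers were uneven.

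Levels can be compared between genes only per length, here as the share of a library in ppm divided by the exon length in kilobases. Itgb1, the shared partner of most alpha subunits listed here, was the highest beta subunit in all 16 libraries. It stood at 58.1 and 61.2 ppm per kilobase in wild-type ESCs, 303 and 289.8 in wild-type MEFs and 354 and 349.7 in floxed MKFs. The second beta subunit of the controls, Itgb5, a partner of Itgav, stood at 11.1 and 11.2 in wild-type ESCs, 36.8 and 32.4 in wild-type MEFs and 19 and 17.8 in floxed MKFs on the same scale. Each table was normalised separately, so levels from different cell types are set side by side only as a description.

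The alpha subunits differed in order between the cell types. In wild-type ESCs the laminin receptor subunit Itga6 led with 12.5 and 14 ppm per kilobase. Itgav, a receptor subunit for vitronectin and other matrix proteins, stood at 9.57 and 10.8 and the fibronectin receptor subunit Itga5 at 9.54 and 10.5, and their ranges overlapped. In wild-type MEFs Itgav led with 70.5 and 63.2, ahead of Itga5 with 60.3 and 51 and Itga6 with 27.1 and 23.9. In floxed MKFs Itga3, another laminin receptor subunit, stood at 26.9 and 25.4 and Itgav at 26 and 25, which overlapped, and Itga5 followed at 11.2 and 10.1. Of the summed level per kilobase of the 9 alpha subunits found in all tables, Itga5 made up 31.9 and 30.9 percent in wild-type, 55.8 and 57.1 percent in Actg1 KO and 45.5 and 45.6 percent in locus deletion MEFs. Itga3 made up 34.2 and 34 percent in floxed and 60 and 62 percent in Kindlin-2 KO MKFs.

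**Figure D1:**
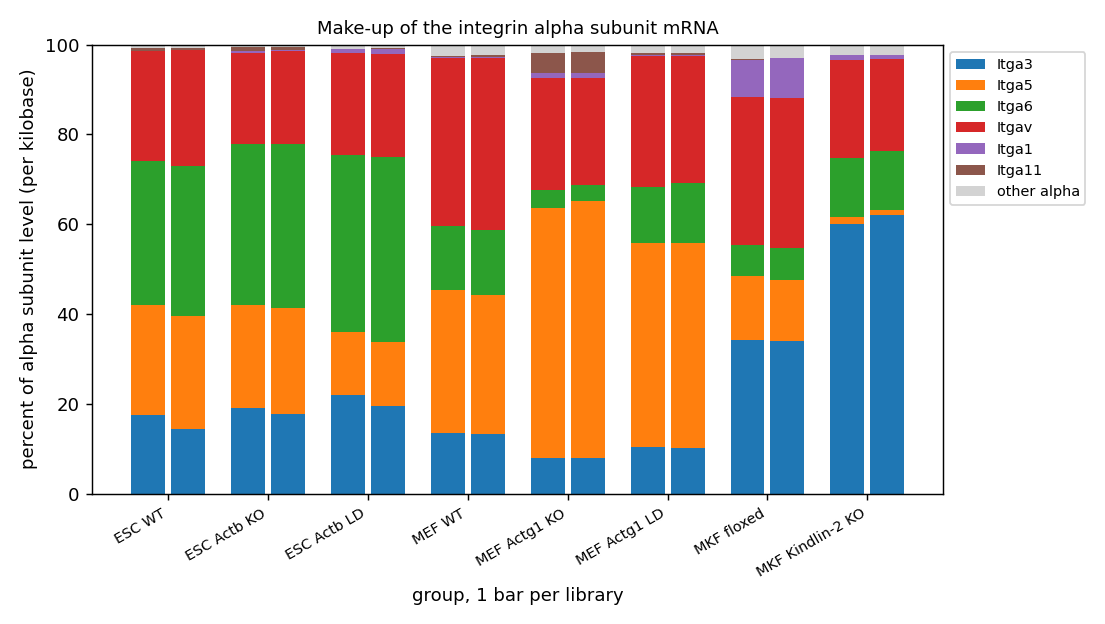
Share of each alpha subunit in the summed alpha subunit level per kilobase (percent, vertical axis), 1 bar for each of the 16 libraries, in groups along the horizontal axis. The bars of a group resemble each other, Itga5 takes the largest share in Actg1 KO and locus deletion MEFs and Itga3 in Kindlin-2 KO MKFs.

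Across the 5 comparisons of a mutant with its control, 37 of the 38 genes passed the test at least once, and 22 of them rose in 1 comparison and fell in another. Of all genes tested, 4.88 and 11.2 percent passed in the Actb KO and locus deletion. In the Actg1 KO and locus deletion 39.7 and 22 percent passed, and in the Kindlin-2 KO 49.2 percent. How many of all genes passed at least once, in both directions or in all 5 was not counted. These counts therefore do not set the members apart. Pdlim5, a PDZ-LIM protein of actin filaments, passed in all 5 and rose each time. Its Actb KO call was lost with only the 4 libraries compared and with genes over 1 percent of a library left out of the scaling. Without the trend in limma, its calls in both Actb mutants and in the Actg1 KO were lost. Trip6, a LIM protein of the zyxin family, passed in none of the 5: it stood at 189 and 148 in wild-type, 191 and 155 in KO and 165 and 172 in locus deletion ESCs, which overlapped. In MEFs Trip6 stood at 827 and 751 in wild-type, 739 and 837 in KO and 665 and 623 in locus deletion cells, and in MKFs at 544 and 506 in floxed and 523 and 514 in KO cells. The comparisons of KO and locus deletion share their control libraries within a cell type, so their results are not independent of each other.

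**Figure D2:**
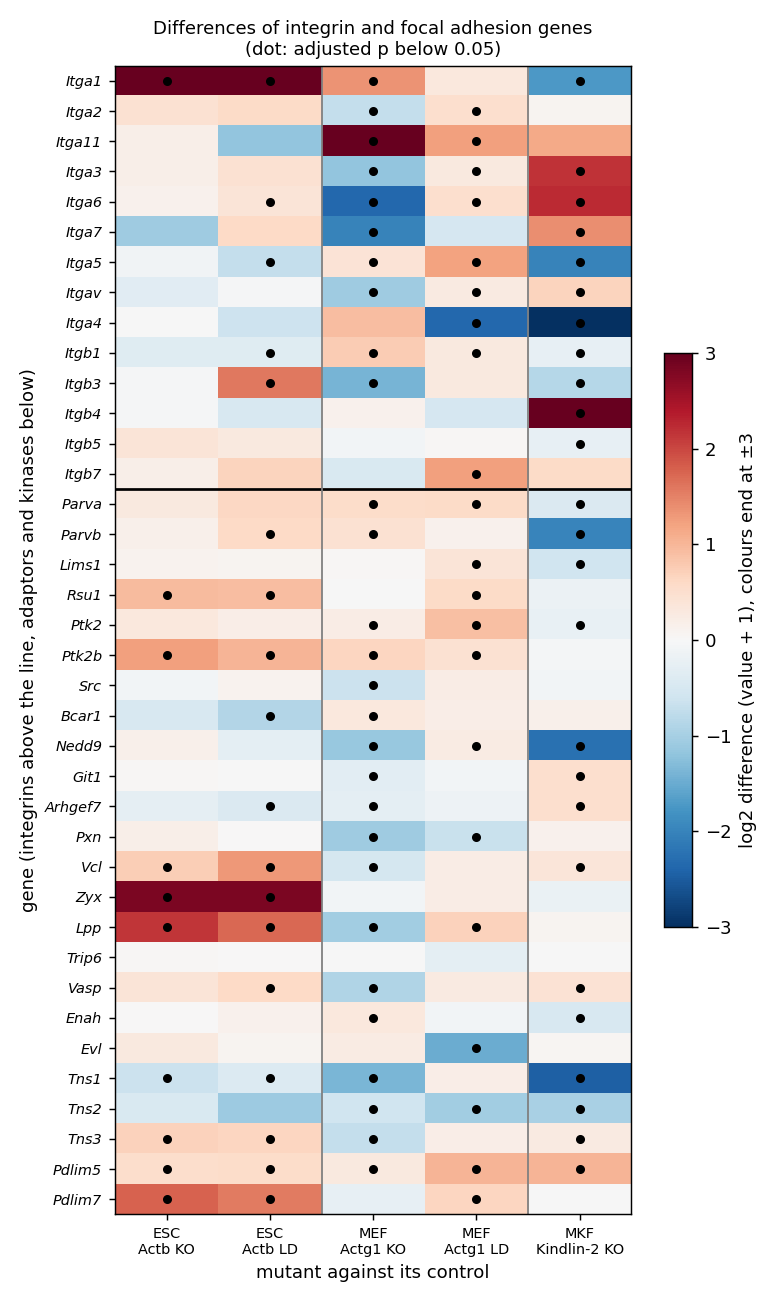
Differences on the log2(value + 1) scale (colour, ending at 3 in either direction) for the 38 genes (rows) in the 5 comparisons of a mutant with its control (columns); a dot marks an adjusted p below 0.05. The row of Pdlim5 has 5 dots and that of Trip6 none, and the ESC columns hold fewer dots than the MEF KO and MKF columns.

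In Actb KO ESCs, genes that join integrins to actin rose: the zyxin family members Zyx and Lpp, Vcl, Pdlim5, Pdlim7 and Tns3, with Ptk2b and Rsu1. Of the 24 adaptor or kinase genes 8 rose and 1, Tns1, fell. Of the 14 integrin subunits 1 rose, Itga1. Among all 23054 genes tested 4.88 percent passed, 2.44 percent higher and 2.44 percent lower. With genes over 1 percent of a library left out of the scaling, these shares were 2.03 and 3.41 percent, while 8 of the 38 rose and 2 fell. The median log2 fold change of the 38 genes was 0.16, and that of all genes 0.00. The shares of all genes include low genes. Among genes with a mean of at least 50, members left out, the share that passed per chromosome ran from 28 of 531 on chromosome 17 to 110 of 612 on chromosome 8.

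The largest rises were those of Itga1, Zyx, Lpp and Pdlim7. Itga1, the alpha subunit of a collagen receptor, stood at 4 and 5 in wild-type and 45 and 49 in KO ESCs (log2 fold change 3.13, SE 0.27, adjusted p = 0.00089). Zyx, the gene of zyxin, which gathers at adhesions and stress fibres under tension, stood at 36 and 51 in wild-type and 305 and 310 in KO cells (log2 fold change 2.81, SE 0.20, adjusted p = 0.000418). Lpp stood at 484 and 532 in wild-type and 2000 and 2496 in KO cells (log2 fold change 2.14, SE 0.13, adjusted p = 0.000154). The PDZ-LIM gene Pdlim7 stood at 152 and 124 in wild-type and 484 and 461 in KO cells (log2 fold change 1.78, SE 0.15, adjusted p = 0.000801). Both KO libraries lay above both wild-type libraries for all of them. Ptk2b, the gene of the kinase Pyk2 related to focal adhesion kinase, stood at 92 and 117 in wild-type and 255 and 238 in KO cells (log2 fold change 1.24, SE 0.17, adjusted p = 0.00646). Rsu1, whose protein binds the PINCH adaptor, stood at 422 and 444 in wild-type and 828 and 851 in KO cells (log2 fold change 0.95, SE 0.13, adjusted p = 0.00625).

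Vcl, Tns3 and Pdlim5 rose by smaller folds. Vcl, the gene of vinculin, which ties talin to actin, stood at 1235 and 1259 in wild-type and 2138 and 2034 in KO cells (log2 fold change 0.74, SE 0.098, adjusted p = 0.00585). Tns3 stood at 2928 and 2808 in wild-type and 4640 and 4601 in KO cells (0.69, adjusted p = 0.00626) and Pdlim5 at 800 and 767 in wild-type and 1165 and 1096 in KO cells (0.53, adjusted p = 0.0327). Tns1, like Tns3 a tensin that binds integrin tails and actin, fell from 989 and 960 to 630 and 621 (log2 fold change −0.64, SE 0.10, adjusted p = 0.0133). The commonest integrin, Itgb1, stood at 3810 and 3999 in wild-type and 2943 and 3111 in KO cells and did not pass (−0.37, adjusted p = 0.065), nor did Bcar1 (−0.48, adjusted p = 0.172), the gene of the docking protein p130Cas. With a replicate block, both passed as lower (adjusted p = 0.0347 and 0.0353). With any 1 of the 4 libraries left out, KO library 1 or 2 or wild-type library 1 or 2, 0 of the 38 passed in limma, with 13, 14, 16 and 15 at an unadjusted p below 0.05. The 10 genes kept their direction in each of these fits. This could not be otherwise, because their KO and wild-type libraries did not overlap. The fits assume that the lone library varies like the other groups.

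In ESCs without the Actb locus 10 of the 24 adaptor or kinase genes rose and 3 fell, and 3 of the 14 integrin subunits rose and 2 fell. Of all genes 11.2 percent passed, 5.19 percent higher and 6 percent lower, and the median log2 fold change was 0.24 over the 38 genes and 0.01 over all genes. Those shares include low genes. Among genes with a mean of at least 50, members left out, the share per chromosome ran from 93 of 746 on chromosome 4 to 216 of 612 on chromosome 8. All 9 genes that rose in the KO rose here as well, and Tns1 fell again. Both comparisons use the same 2 wild-type libraries, so the shared calls are not independent. How many of all genes that passed in the KO passed the same way here was not counted. The overlap therefore does not set the members apart. Itga1 stood at 105 and 122 (log2 fold change 4.38, SE 0.27, adjusted p = 0.000118), Zyx at 278 and 344 (log2 fold change 2.82, SE 0.20, adjusted p = 0.000223), and Lpp at 1736 and 1639 (log2 fold change 1.73, SE 0.13, adjusted p = 0.000271). Vcl stood at 3210 and 2965 (log2 fold change 1.31, SE 0.098, adjusted p = 0.000271) and Pdlim7 at 390 and 430 (log2 fold change 1.57, SE 0.15, adjusted p = 0.000741). Both locus deletion libraries lay above both wild-type libraries for each of these genes. Ptk2b stood at 221 and 200 (1.01, adjusted p = 0.00766), Rsu1 at 744 and 910 (0.93, adjusted p = 0.00373), Tns3 at 4606 and 4338 (0.64, adjusted p = 0.00447), Pdlim5 at 1207 and 1084 (0.55, adjusted p = 0.0159) and Tns1 at 724 and 733 (−0.42, adjusted p = 0.035).

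Another 8 members passed in the locus deletion but not in the KO. Itgb3, the partner of Itgav in a vitronectin receptor, stood at 96 and 94 in wild-type, 103 and 84 in KO and 287 and 290 in locus deletion ESCs (log2 fold change 1.59, SE 0.17, adjusted p = 0.00114, locus deletion against wild type). Both locus deletion libraries were far above the other 4. Itga6 stood at 1808 and 2023 in wild-type and 2527 and 2497 in locus deletion cells (0.39, adjusted p = 0.0424). Itga5 fell from 756 and 827 to 491 and 477 (−0.71, adjusted p = 0.00663), without overlap. Itgb1 stood at 3003 and 3062 (−0.36, adjusted p = 0.0409). Vasp, a gene of the Ena/VASP proteins that extend actin filaments, rose (0.60, adjusted p = 0.0153), as did Parvb (0.59, adjusted p = 0.0466), which links the integrin-linked kinase complex to actin. Bcar1 fell from 475 and 580 to 258 and 314 (−0.88, adjusted p = 0.0164), and Arhgef7, an exchange factor for Rac and Cdc42, fell as well (−0.42, adjusted p = 0.0334). Itga3 stood at 627 and 556 in wild-type and 894 and 744 in locus deletion cells and did not pass (0.47, adjusted p = 0.0544), but passed with a replicate block (adjusted p = 0.0192). The 20 genes that passed in neither mutant ran from −1.07 (Itga7) to 0.45 (Itga2) on the log2 scale in the KO and from −1.18 (Itga11) to 0.68 (Itgb7) in the locus deletion. They include Itgav, Pxn, Ptk2, Src, Git1, Nedd9, Parva, Lims1, Enah and Evl.

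Directly compared, the KO and the locus deletion differed in 4 of the 38 genes, against 4.88 percent of all genes, 2.56 percent higher and 2.32 percent lower in the KO. Among genes with a mean of at least 50, members left out, the share per chromosome ran from 30 of 531 on chromosome 17 to 49 of 363 on chromosome X. The 4 of 38 lies within this range. Itga1 (−1.25, adjusted p = 0.0352), Itgb3 (−1.62, adjusted p = 0.0024) and Vcl (−0.56, adjusted p = 0.0163) were lower in the KO, and Itga5 (0.60, adjusted p = 0.0222) was higher. With a replicate block Itga7, a laminin receptor subunit at 9 and 7 in KO and 36 and 21 in locus deletion cells, was also lower in the KO (adjusted p = 0.0223). For Zyx the difference was −0.01 with an SE of 0.20, and for Lpp 0.41 with an SE of 0.13. Without locus deletion library 1 or 2, 7 and 6 members passed against wild type, and without wild-type library 1 or 2, 3 and 2. Itga1 and Zyx passed in all 4 fits. For KO against locus deletion 0 passed in limma with any 1 of the 4 libraries left out, with 8 or 9 at an unadjusted p below 0.05.

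**Figure D3:**
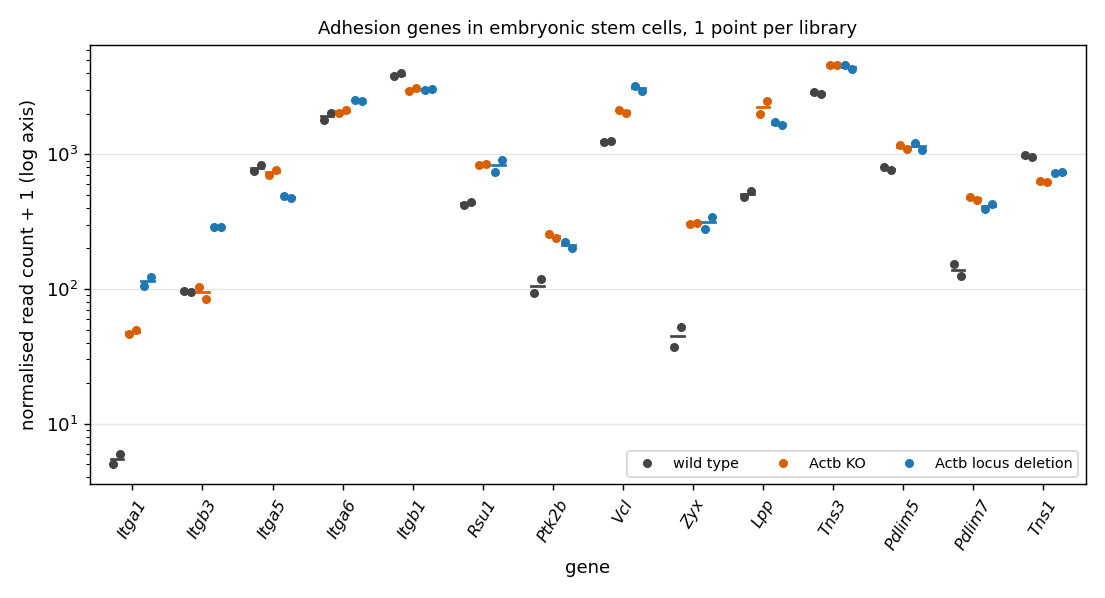
Normalised read count plus 1 (log axis) of 14 adhesion genes in the 6 ESC libraries: points are libraries, short lines group means, colours genotypes. Zyx, Lpp and Pdlim7 stand above wild type in both mutants, and Itgb3 only in the locus deletion libraries, at 287 and 290.

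The upstream sequences of Vcl, Zyx and Lpp are shown, 3 of the 9 adhesion genes that rose in both Actb mutants. The sequences are the 250 bases before the RefSeq start on GRCm38.p6, all on the plus strand. Capitals mark a CArG box, the site of the serum response factor, in Vcl, the letters GGAATG bound by TEAD factors in Vcl and Lpp, and TGAGTCA, the site of AP-1, in Zyx.
Vcl, chr14:20929148-20929397: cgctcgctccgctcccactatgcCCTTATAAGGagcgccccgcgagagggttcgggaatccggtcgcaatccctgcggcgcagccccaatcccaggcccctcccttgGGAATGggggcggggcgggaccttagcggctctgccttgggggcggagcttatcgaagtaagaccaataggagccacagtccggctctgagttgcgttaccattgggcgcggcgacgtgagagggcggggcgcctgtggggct
Zyx, chr6:42349578-42349827: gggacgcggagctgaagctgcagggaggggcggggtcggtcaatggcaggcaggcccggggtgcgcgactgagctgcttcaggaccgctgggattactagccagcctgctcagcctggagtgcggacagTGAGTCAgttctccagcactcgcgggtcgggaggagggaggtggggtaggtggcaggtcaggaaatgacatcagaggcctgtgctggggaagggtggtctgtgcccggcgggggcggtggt
Lpp, second start, chr16:24721605-24721854: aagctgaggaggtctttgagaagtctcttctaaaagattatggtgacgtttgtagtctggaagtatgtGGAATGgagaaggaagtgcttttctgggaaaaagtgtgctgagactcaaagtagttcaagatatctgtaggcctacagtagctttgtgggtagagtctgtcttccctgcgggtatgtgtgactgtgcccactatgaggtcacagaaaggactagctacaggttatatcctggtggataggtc
Both strands of windows of 300 bases, from 250 before to 50 after a start, were searched for these letters. RefSeq windows were found for 30 of the 38 genes, 40 windows in all. The CArG box was in 1.63 percent of all 32851 windows and in 3 of the 40, those of Vcl, Rsu1 and Trip6. In Vcl it began 227 bases before the start. Of these 3 genes Vcl and Rsu1 rose in the ESC mutants and Trip6 did not pass. GGAATG or CATTCC was in 14.7 percent of all windows and 15.0 percent of the 40, in Vcl, Lpp, Itgb1, Evl and Trip6. TGACTCA or TGAGTCA was in 5.2 percent of all windows and in 1 of the 40, that of Zyx, 121 bases before the start. The searched letters do not overlap in the sequences shown, and a match does not show that a factor binds there. The first start of Lpp held none of these letters in the part before the start, and GENCODE places a Zyx start within the stretch shown for Zyx. Among the 9 genes that rose in both Actb mutants, only the 3 shown had a match before the start. That of Rsu1 began at base 29 after the start. For Itga1, Ptk2b, Tns3, Pdlim5 and Pdlim7 no match was found, and some of them may lack a window. The sequences shown therefore do not stand for all 9.

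Genes of chromosome 8 were lower as a whole in both Actb mutants. Their median log2 fold change, over 612 genes with a mean of at least 50 and without the adhesion genes, was −0.35 in the KO and −0.40 in the locus deletion. The medians of the other 18 autosomes ran from −0.0015 to 0.083 and from −0.049 to 0.10. Itgb1 (ENSMUSG00000025809, chr8:128685654-128733200 on GRCm38, as all positions here), Bcar1 and Arhgef7 lie on chromosome 8 and are 3 of the 5 members that fell in the locus deletion. Itgb1 differed from wild type by −0.36, Arhgef7 by −0.42 and Bcar1 by −0.88. The part of chromosome 8 in these values was not tested. Itga5 and Tns1 (ENSMUSG00000055322, chr1:73910231-74124449), the others that fell, and the 13 that rose lie elsewhere, among them Itga1 (ENSMUSG00000042284, chr13:114953096-115101964), Vcl (ENSMUSG00000021823, chr14:20929398-21033676), Zyx (ENSMUSG00000029860, chr6:42349630-42360213), Lpp (ENSMUSG00000033306, chr16:24393507-24992578) and Itgb3 (ENSMUSG00000020689, chr11:104608000-104670476).

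Of the other genes of the pathway in ESCs, where 4.88 percent of all genes passed in the KO and 11.2 percent in the locus deletion, 4 of 13 integrin activators and inhibitors rose in the KO, among them the talin gene Tln1 at 3007 and 2736 in wild-type and 4692 and 4390 in KO cells and the kindlin genes Fermt3 (1.12) and Fermt2 (0.96). Also 4 rose in the locus deletion, led by Fermt3, at 87 and 95 in wild-type and 387 and 478 in locus deletion cells. Of 13 further genes that link actin to adhesions, 5 rose in the KO, and 8 rose and 1 fell in the locus deletion. Flna, a filamin that binds integrin tails, stood at 5182 and 5043 in wild-type, 20595 and 19868 in KO and 28310 and 24887 in locus deletion cells. The LIM protein gene Csrp1 stood at 571 and 508 in wild-type, 1230 and 1358 in KO and 1812 and 1752 in locus deletion cells. Palld, of palladin, fell in the locus deletion, from 996 and 1083 to 369 and 446. Of 18 genes of signalling from adhesions 0 passed in the KO in limma (4 at an unadjusted p below 0.05), and 2 rose and 1 fell in the locus deletion, among them Dock1 (0.94). Of 14 integrin ligands 2 rose and 1 fell in the KO, and 2 rose and 3 fell in the locus deletion. The ligand Thbs1 stood at 4 and 2 in wild-type, 55 and 41 in KO and 27 and 21 in locus deletion cells. Of 6 other integrin subunits, those of blood cells and Itga10, 0 passed in the KO in limma (2 at an unadjusted p below 0.05) and Itgal fell in the locus deletion (−1.70). With the marker genes included, 20 genes of these lists passed in the KO and 30 in the locus deletion. In limma fits with each library left out in turn, 0 of the 20 and 2 of the 30, Flna and Csrp1, passed throughout (the 20 had adjusted p = 0.0584 to 0.342).

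The pluripotency markers summed to 2071 to 2177 ppm in wild-type, 2164 and 2178 in KO and 2358 and 2394 in locus deletion libraries, and 0 of 6 passed in limma in either mutant (3 and 2 at an unadjusted p below 0.05). The fibroblast markers in the table, 6 of 8, summed to 13.9 and 14.0 ppm in wild-type, 11.8 and 12.2 in KO and 10.3 and 10.6 in locus deletion libraries, and Pdgfrb and Thy1 fell in the locus deletion. In the KO 0 passed in limma, with 1 at an unadjusted p below 0.05. The 5 endothelial markers in the table summed to 138.6 and 139.4 ppm in wild-type, 89.8 and 94.9 in KO and 77.6 and 81.7 in locus deletion libraries. The 3 macrophage and blood markers in the table summed to 60.5 and 68.6 ppm in wild-type, 119 and 123 in KO and 79.2 and 86.4 in locus deletion libraries. The 5 kidney epithelial markers, some of which ESCs also express, summed to 772.6 and 800.1 ppm in wild-type, 580.6 and 586.0 in KO and 469.0 and 479.1 in locus deletion libraries. Cdh1, the E-cadherin gene, made up most of these sums and fell in both mutants (−0.53, adjusted p = 0.0168 in the KO and −0.77, adjusted p = 0.00178 in the locus deletion). The keratin genes Krt8 and Krt18 rose in the KO and fell in the locus deletion. Krt8 stood at 105 and 92 in wild-type, 344 and 286 in KO and 26 and 24 in locus deletion cells, and Krt18 at 88 and 60 in wild-type, 339 and 302 in KO and 15 and 15 in locus deletion cells. Both were higher in the KO than in the locus deletion (3.60, adjusted p = 0.000122 for Krt8 and 4.33, adjusted p = 0.000122 for Krt18), in 2 of the 4 fits with 1 library left out, and against wild type the KO calls of all 3 genes were lost in each such fit. Of the genes in these lists, Cdh5 was at 0 in both locus deletion libraries and in wild-type library 1, and Pax8 in KO library 1 and wild-type library 1. The part of these shifts in the differences of the adhesion genes was not tested. In these bulk samples, fewer cells of a type and less RNA per cell cannot be told apart.

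Of the genes outside the count, Tgfb1i1, the gene of the paxillin relative Hic-5, stood at 2 and 3 in wild-type, 23 and 16 in KO and 10 and 10 in locus deletion ESCs and passed in both comparisons (adjusted p = 0.0191 and 0.0488). Itga8, an alpha subunit that binds the RGD motif, stood at 6 and 7 in wild-type and 22 and 22 in KO cells (1.62, adjusted p = 0.0483). Itga9 stood at 73 and 82 in wild-type and 126 and 127 in KO cells and did not pass. Lims2 and Tns4 stayed at 5 or lower in every ESC library.

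In Actg1 KO MEFs the integrin repertoire shifted: collagen receptor subunits Itga1 and Itga11 rose with Itgb1, while the laminin receptor subunits Itga3, Itga6 and Itga7 and the Itgav and Itgb3 pair fell. Of the 14 integrin subunits 4 rose and 6 fell, and of the 24 adaptor or kinase genes 7 rose and 11 fell. In all, 28 of the 38 passed, against 39.7 percent of all 21589 genes, 20.6 percent higher and 19.1 percent lower. Those shares include low genes. Among genes with a mean of at least 50, members left out, 686 of 886 on chromosome 2 and 439 of 846 on chromosome 11 passed. These chromosomes hold the most such genes. Per chromosome, the share ran from 319 of 772 on chromosome 7 to 277 of 347 on chromosome 16. Chromosomes 16 and 2 had the lowest median log2 fold changes, −0.85 and −0.53. The 28 of 38 lies within the range of shares, so it does not set the members apart. The median log2 fold change was −0.16 over the 38 genes and 0.06 over all genes.

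Itga11, a collagen receptor subunit of mesenchymal cells, stood at 48 and 56 in wild-type and 625 and 717 in KO MEFs (log2 fold change 3.67, SE 0.14, adjusted p = 2.56e-06). Itga1 stood at 257 and 189 in wild-type and 577 and 545 in KO cells (log2 fold change 1.34, SE 0.15, adjusted p = 0.000261). Their partner Itgb1 stood at 26586 and 25683 in wild-type and 43928 and 44785 in KO cells (log2 fold change 0.76, SE 0.065, adjusted p = 7.9e-05), and Itga5 at 6399 and 5460 in wild-type and 7462 and 8314 in KO cells (0.41, adjusted p = 0.0089). The KO libraries lay above the wild-type libraries for all of these. Itga2, the third collagen receptor subunit, fell from 557 and 454 to 321 and 290 (log2 fold change −0.72, SE 0.11, adjusted p = 0.00173).

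The largest fall was that of Itga6, from 5253 and 4689 to 968 and 970 (log2 fold change −2.36, SE 0.086, adjusted p = 2.24e-06). Itga7 stood at 178 and 164 in wild-type and 30 and 59 in KO cells (log2 fold change −1.99, SE 0.29, adjusted p = 0.00108) and Itga3 at 3131 and 2721 in wild-type and 1232 and 1352 in KO cells (log2 fold change −1.18, SE 0.084, adjusted p = 3.42e-05). All KO libraries of these 3 laminin receptor subunits lay below all wild-type libraries. Itgav fell from 16287 and 14747 to 7241 and 7567 (log2 fold change −1.07, SE 0.068, adjusted p = 2.13e-05) and Itgb3 from 515 and 495 to 192 and 191 (log2 fold change −1.39, SE 0.093, adjusted p = 2.67e-05). Itgb5, which also pairs with Itgav, overlapped between the groups, at 2811 and 2501 in wild-type and 2466 and 2546 in KO cells.

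The adaptors that fell include tensins, docking proteins and the zyxin relative Lpp. Tns1 stood at 3952 and 3588 in wild-type and 1483 and 1434 in KO MEFs (log2 fold change −1.37, SE 0.064, adjusted p = 6.13e-06). Nedd9, a docking protein of the p130Cas family, stood at 1764 and 1744 in wild-type and 810 and 783 in KO cells (log2 fold change −1.14, SE 0.063, adjusted p = 1.19e-05). Pxn, the gene of the scaffold paxillin, fell from 1539 and 1221 to 625 and 687 (−1.06, adjusted p = 0.000312) and Lpp from 17072 and 16546 to 8085 and 8296 (−1.04, adjusted p = 9.49e-06). Both KO libraries lay below both wild-type libraries in each of these 4 genes. Vasp (−0.91), Tns3 (−0.71), the kinase Src (−0.65), Tns2 (−0.59), Vcl (−0.53), Git1 (−0.31) and Arhgef7 (−0.29) also fell. Among those that rose, Ptk2b led, from 1304 and 1173 to 1928 and 1970 (0.66, adjusted p = 0.000243), followed by Parva (0.55), Parvb (0.45), Enah (0.31), Bcar1 (0.31), Pdlim5 (0.30) and Ptk2 (0.22), the gene of focal adhesion kinase. Zyx, which had risen in the ESC mutants, stood at 3022 and 2776 in wild-type and 2610 and 2880 in KO MEFs, with overlap. Without KO library 1, 17 of the 38 passed. Of the 28, 16 passed in each of the 4 fits with 1 library left out, among them Itga1, Itga11, Itga3, Itga6, Itga7, Itgav, Itgb1, Itgb3, Ptk2b, Nedd9, Lpp and Tns1. Parvb passed in none of these fits and Itga5, Ptk2, Bcar1, Git1 and Arhgef7 in 1. The 10 genes that did not pass in the KO ran from −0.46 (Itgb7) to 0.92 (Itga4) on the log2 scale, and include Rsu1, Lims1, Evl, Pdlim7 and Itgb4.

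Whole chromosomes also differed between these libraries. The median log2 fold change of a chromosome's genes, members left out and with a mean of at least 50, ran from −0.85 on chromosome 16 to 0.24 on chromosome 8, and was −0.53 on chromosome 2. Lpp lies on chromosome 16, and Itga6 (ENSMUSG00000027111, chr2:71745616-71858416), Itgav and Src on chromosome 2. Itgb5 (−0.08) also lies on chromosome 16, and Rsu1 (−0.0003) and Itga4 (0.92) on chromosome 2, and none of these passed. The differences of Lpp (−1.04) and Src (−0.65) were close to the medians of their chromosomes, that of Itgav was −1.07, and that of Itga6 was −2.36. Ptk2 (0.22) lies on chromosome 15, with a median of 0.23. Of the 28 members that passed, 17 lay at least 0.5 from the median of their chromosome. The same was not counted for all genes that passed, so this count does not set the members apart. The part of the chromosomes in the differences was not tested.

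Cells without the Actg1 locus gave another picture: 8 of the 14 integrin subunits rose and 1 fell, and 9 of the 24 adaptor or kinase genes rose and 3 fell. Of all genes 22 percent passed, 9.46 percent higher and 12.6 percent lower, and the median log2 fold change was 0.26 over the 38 genes and 0.00 over all genes. Those shares include low genes. Among genes with a mean of at least 50, members left out, 481 of 676 passed on chromosome 4, the highest share. The other chromosomes ran from 142 of 537 on chromosome 17 to 240 of 550 on chromosome 6. Itga5 rose most among the abundant subunits, from 6399 and 5460 to 13091 and 14201 (log2 fold change 1.21, SE 0.092, adjusted p = 0.000153). Itga11 stood at 118 and 129 (log2 fold change 1.23, SE 0.14, adjusted p = 0.000783) and Itgb7, known from lymphocytes, at 100 and 76 in wild-type and 205 and 208 in locus deletion cells (log2 fold change 1.23, SE 0.18, adjusted p = 0.00282). The locus deletion libraries lay above the wild-type libraries for all 3. Itga4, which binds fibronectin and Vcam1, went from 12 and 17 to 2 and 2 (adjusted p = 0.00423).

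The other subunits that rose did so by smaller amounts. Itga6 stood at 6575 and 7613 (0.51, adjusted p = 0.00476), Itga2 at 694 and 736 (0.51, adjusted p = 0.0168) and Itga3 at 3468 and 3660 (0.29, adjusted p = 0.0458). Itgav stood at 18237 and 19264 (0.27, adjusted p = 0.0246) and Itgb1 at 30681 and 33173 (0.29, adjusted p = 0.017). None of these overlapped with wild type. Among adaptors and kinases, Pdlim5 stood at 4446 and 4263 in wild-type and 8625 and 9095 in locus deletion MEFs (log2 fold change 1.02, SE 0.058, adjusted p = 4.16e-05) and Ptk2 at 4469 and 4197 in wild-type and 8084 and 8018 in locus deletion cells (log2 fold change 0.89, SE 0.055, adjusted p = 5.79e-05). Lpp rose from 17072 and 16546 to 27300 and 26895 (0.69, adjusted p = 0.000167). Pdlim7 (0.64), Rsu1 (0.58), Parva (0.57), Ptk2b (0.45), Lims1 (0.38), the gene of PINCH1, and Nedd9 (0.25) also rose. Evl, of the Ena/VASP family, fell from 852 and 749 to 255 and 315 (log2 fold change −1.49, SE 0.11, adjusted p = 0.000153), Tns2 from 1528 and 1482 to 716 and 734 (log2 fold change −1.05, SE 0.062, adjusted p = 4.56e-05) and Pxn from 1539 and 1221 to 815 and 920 (−0.66, adjusted p = 0.00665). Of the 21 that passed, 12 did so in each fit with 1 library left out: Itga11, Itga5, Itga4, Itgb7, Parva, Lims1, Ptk2, Ptk2b, Lpp, Evl, Tns2 and Pdlim5. Itga3 and Itgav passed in none of these 4 fits and Itga2, Nedd9 and Pxn in 1. The 17 genes that did not pass ran from −0.51 (Itga7) to 0.31 (Itga1), and include Vcl, Vasp, Src, Bcar1, Tns1, Tns3 and Itgb3.

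Set against each other, Actg1 KO and locus deletion MEFs differed in 31 of the 38 genes, 9 higher and 22 lower in the KO, where 45.2 percent of all genes differed, 24.5 percent higher and 20.7 percent lower. Among genes with a mean of at least 50, members left out, the share per chromosome ran from 400 of 772 on chromosome 7 to 307 of 347 on chromosome 16. The 31 of 38 lies within this range, so it does not set the members apart. The largest differences were in Itga4, at 30 and 26 in KO and 2 and 2 in locus deletion cells, Itga6 (−2.87, adjusted p = 6.29e-07) and Itga11 (2.43, adjusted p = 8.41e-06). Both mutants had higher Itga11 than wild type, at 625 and 717 in the KO and 118 and 129 in the locus deletion. Parva differed by −0.02 with an SE of 0.06 and did not pass, standing at 4155 and 4234 in KO and 4105 and 4386 in locus deletion cells. Itga2, Itga3, Itga6, Itgav, Nedd9 and Lpp fell in the KO and rose in the locus deletion, against the same wild-type libraries. The difference between the mutants also passed for each, which follows from those opposite calls and is no further test. Pxn and Tns2 fell in both mutants, and Itga11, Itga5, Itgb1, Parva, Ptk2, Ptk2b and Pdlim5 rose in both.

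**Figure D4:**
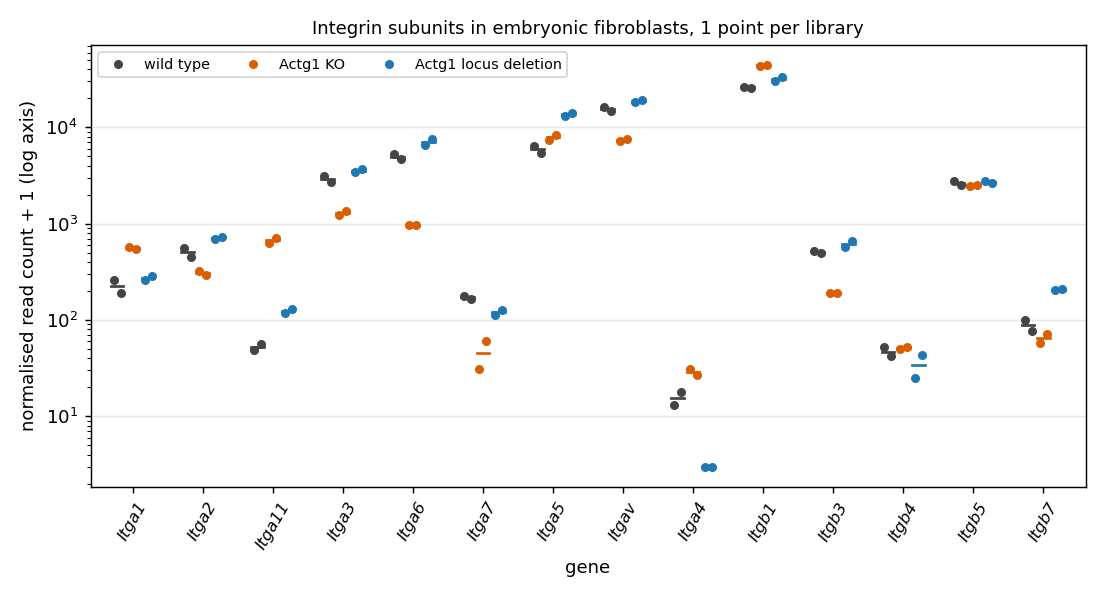
Normalised read count plus 1 (log axis) of the 14 integrin subunits in the 6 MEF libraries: points are libraries, short lines group means, colours genotypes. Itga6 stands at 968 and 970 in the KO and at 4689 or above in the other libraries, and Itgb5 overlaps between wild type and both mutants.

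Of all genes in MEFs, 39.7 percent passed in the KO and 22 percent in the locus deletion, and the counts of the other lists stand against these. Of 16 integrin ligands 13 rose and 2 fell in the KO, where 20.6 percent of all genes were higher and 19.1 percent lower. Col1a1, a chain of collagen I, stood at 15137 and 13197 in wild-type and 84930 and 91165 in KO cells (2.64, adjusted p = 1.18e-06), Col1a2 at 10576 and 9576 in wild-type and 29192 and 31323 in KO cells, and the alpha8 ligand nephronectin, Npnt, at 38 and 30 in wild-type and 214 and 227 in KO cells. In the locus deletion 5 ligands rose and 3 fell, among them Edil3, from 1115 and 1123 to 305 and 304. Of 12 activators and inhibitors 3 rose and 5 fell in the KO, and 3 rose and 3 fell in the locus deletion. Kank2, which binds talin, fell in both (−0.78 and −0.61), as did Tln2 (−0.66 and −0.70). Of 14 actin links 5 rose and 4 fell in the KO, and 5 rose in the locus deletion, among them Svil, of the actin-binding protein supervillin, in both (1.10 and 1.16). Of 18 signalling genes 5 rose and 6 fell in the KO, among them Crkl (−1.14) and Arhgef6 (−0.99), and 2 rose and 4 fell in the locus deletion, among them Fyn (0.58) and Cdc42 (−0.52). Of 5 other integrin subunits, Itga2b rose and Itga10 fell in the KO (2.00 and −0.89), and Itga10 fell in the locus deletion (−1.05). With each library left out in turn, 28 of 53 list and marker genes that passed in the KO and 14 of 31 in the locus deletion passed throughout, while Itga10 and Arhgef6 passed in none of the fits of the KO.

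The fibroblast markers, 3 of which are also on the ligand list, summed to 2060 and 2278 ppm in wild-type, 7107 and 7420 in KO and 1951 and 1959 in locus deletion MEFs. Of the 8, 4 rose and 1 fell in the KO, and 3 fell in the locus deletion. Nanog and Sox2, the 2 pluripotency markers in the table, both rose in the KO (log2 fold changes 2.17 and 5.09), and Sox2 fell in the locus deletion. Sox2, a pluripotency and neural progenitor gene, stood at 44 and 32 in wild-type, 1326 and 1306 in KO and 0 and 0 in locus deletion MEFs. The kidney epithelial markers in the table, 2 of 6, summed to 0.974 to 1.49 ppm, the endothelial ones, 5 of 6, to 3.80 to 6.87, and the macrophage and blood ones, 3 of 6, to 1.98 to 4.33. All of these genes were above 0 in all 6 libraries, except Sox2. The part of these shifts in the integrin differences was not tested.

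Outside the count, Tns4 stood at 17 and 23 in wild-type, 16 and 16 in KO and 210 and 233 in locus deletion MEFs (3.42, adjusted p = 9.8e-05, locus deletion against wild type). Itga8, an alpha subunit of the nephronectin receptor, stood at 47 and 47 in wild-type, 130 and 146 in KO and 20 and 14 in locus deletion cells (adjusted p = 0.00149 and 0.0043). Itgb8 stood at 150 and 140 in wild-type, 150 and 139 in KO and 81 and 87 in locus deletion cells, lower in the locus deletion than in wild type (−0.78, adjusted p = 0.00529), and higher in the KO than in the locus deletion (0.78, adjusted p = 0.00225). Tgfb1i1 rose in both mutants (0.38 and 0.92), and Lims2, at 18 and 14 in wild-type cells, rose in the locus deletion (1.60, adjusted p = 0.0077).

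In Kindlin-2 KO MKFs the laminin receptor subunits Itga3, Itga6, Itga7 and Itgb4 rose, with Itgav. The collagen receptor subunit Itga1, the fibronectin receptor subunits Itga4 and Itga5, and Itgb1, Itgb3 and Itgb5 fell, and 6 of the 24 adaptor or kinase genes rose and 8 fell. In all 25 of the 38 passed, against 49.2 percent of all 18288 genes, 24.3 percent higher and 24.9 percent lower. Those shares include low genes. Among genes with a mean of at least 50, members left out, 511 of 829 on chromosome 2 and 506 of 883 on chromosome 11 passed. These chromosomes hold the most such genes. Per chromosome, the share ran from 239 of 438 on chromosome 13 to 321 of 373 on chromosome 12. The 25 of 38 lies within this range, so it does not set the members apart. The median log2 fold change was −0.01 over the 38 genes and 0.01 over all genes.

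Itgb4, the partner of Itga6 in hemidesmosomes, which anchor epithelial cells to the basement membrane, stood at 21 and 26 in floxed and 1961 and 2148 in KO cells (log2 fold change 6.40, SE 0.13, adjusted p = 4.1e-05). Itga6 stood at 778 and 781 in floxed and 3626 and 3774 in KO cells (log2 fold change 2.25, SE 0.042, adjusted p = 3.75e-05), Itga3 at 2448 and 2366 in floxed and 10390 and 11279 in KO cells (log2 fold change 2.17, SE 0.052, adjusted p = 5.06e-05) and Itga7 at 163 and 159 in floxed and 422 and 430 in KO cells (log2 fold change 1.40, SE 0.067, adjusted p = 0.000187). Itgav stood at 4441 and 4383 in floxed and 7096 and 6964 in KO cells (0.67, adjusted p = 0.000199). Both KO libraries lay above both floxed libraries in all 5 genes. Itgb6, the epithelial partner of Itgav, lies outside the count and stood at 45 and 33 in floxed and 185 and 199 in KO cells (2.29, adjusted p = 0.000696).

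The fibronectin receptor subunit Itga5 fell from 882 and 810 to 224 and 196 (log2 fold change −2.01, SE 0.091, adjusted p = 0.000174) and the collagen receptor subunit Itga1 from 1933 and 2003 to 601 and 581 (log2 fold change −1.73, SE 0.047, adjusted p = 5.81e-05). Itgb3 stood at 121 and 132 in floxed and 60 and 81 in KO cells (−0.85, adjusted p = 0.015). Itgb1 fell by less, from 23000 and 23299 to 19714 and 19216 (−0.25, adjusted p = 0.00333), and so did Itgb5, from 1074 and 1035 to 884 and 884 (−0.25, adjusted p = 0.00923). No library of one group overlapped with the other for these genes. Itga4 stood at 15 and 8 in floxed and 0 and 1 in KO cells (adjusted p = 0.0103), and Itga9, outside the count, at 45 and 28 in floxed and 1 and 0 in KO cells. Itga2 stood at 135 and 120 in floxed and 129 and 139 in KO cells, with overlap.

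Among the adaptors, Tns1 fell from 4628 and 4823 to 849 and 892 (log2 fold change −2.44, SE 0.047, adjusted p = 3.95e-05), Nedd9 from 918 and 886 to 196 and 186 (log2 fold change −2.23, SE 0.062, adjusted p = 6.04e-05) and Parvb from 506 and 520 to 126 and 134 (log2 fold change −1.97, SE 0.073, adjusted p = 0.000109). Pdlim5 (ENSMUSG00000028273, chr3:142239590-142395696) rose from 1252 and 1356 to 2767 and 2539 (log2 fold change 1.02, SE 0.066, adjusted p = 0.000385). The groups were apart for each of these. Tns2 (−0.97), Lims1 (−0.61), Enah (−0.49), Parva (−0.43) and Ptk2 (−0.22) also fell, and Arhgef7 (0.51), Git1 (0.51), Vasp (0.44), Vcl (0.37) and Tns3 (0.28) rose. Zyx stood at 1408 and 1536 in floxed and 1253 and 1329 in KO cells (−0.19, adjusted p = 0.0598) and Lpp at 4127 and 4008 in floxed and 4368 and 4230 in KO cells (0.08, adjusted p = 0.147), and neither passed. The kinase Src (−0.09), Pxn (0.14) and Itgb8, outside the count (0.16), did not pass either. The 13 genes that did not pass ran from −0.19 (Zyx) to 1.15 (Itga11). Without floxed library 1 or 2, 12 and 13 of the 38 passed. Itga1, Itga3, Itga6, Itga7, Itgav, Itgb4, Parvb, Nedd9, Arhgef7 and Tns1 passed in all 4 fits with 1 library left out.

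**Figure D5:**
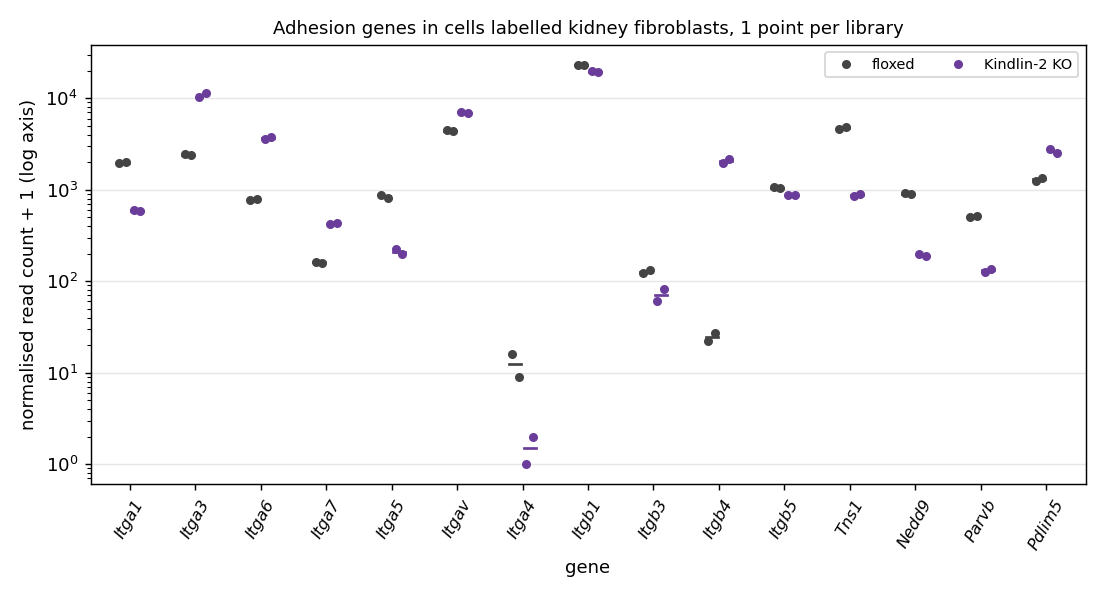
Normalised read count plus 1 (log axis) of 15 adhesion genes in the 4 libraries of cells labelled kidney fibroblasts: points are libraries, short lines group means, colours genotypes. Itga3, Itga6, Itga7 and Itgb4 stand higher in the KO, and Itga1, Itga5, Tns1, Nedd9 and Parvb lower.

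Epithelial markers rose in the same libraries. Epcam, a surface protein of epithelial cells, stood at 26 and 11 in floxed and 3430 and 3401 in KO cells, the E-cadherin gene Cdh1 at 10 and 16 in floxed and 1399 and 1531 in KO cells, and the keratin gene Krt8 at 64 and 78 in floxed and 1024 and 1001 in KO cells. Of the 6 kidney epithelial markers 5 rose, and they summed to 351.6 and 360.4 ppm in floxed and 1541 and 1601 in KO libraries. The fibroblast markers in the table, 6 of 8, summed to 13.7 and 13.8 ppm in floxed and 10.9 and 11.3 in KO libraries, where Fbn1 and Pdgfra rose and the other 4 fell. Twist1, for example, stood at 67 and 54 in floxed and 3 and 1 in KO cells, and Fbn1 at 74 and 86 in floxed and 149 and 154 in KO cells. Sox2, the pluripotency marker in the table, stood at 132 and 134 in floxed and 3 and 0 in KO cells (adjusted p = 0.00205), and passed in 2 of the 4 fits with 1 library left out. The endothelial marker in the table, Pecam1, stood at 0 and 1 in floxed and 7 and 2 in KO libraries, and the 3 macrophage and blood markers summed to 10.1 and 10.2 in floxed and 15.4 and 17.0 in KO libraries. Their part in the integrin differences was not tested. Chromosome medians ran from −0.46 to 0.69 in this comparison, and 18 of the 25 members that passed lay at least 0.5 from the median of their chromosome. The same was not counted for all genes that passed, so this count does not set the members apart. Itgb4 (ENSMUSG00000020758, chr11:115974709-116008412) and Itga3 lie on chromosome 11, with a median of 0.11, and Itga6 on chromosome 2, with 0.21.

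Of 12 integrin activators and inhibitors 3 rose and 4 fell, where 24.3 percent of all genes were higher and 24.9 percent lower. Fermt1, the kindlin gene of epithelial cells, stood at 0 and 0 in floxed and 282 and 248 in KO libraries (adjusted p = 6.78e-05). Kank1 rose from 58 and 37 to 198 and 225, and Fermt2, the targeted gene, fell (log2 fold change −1.32, SE 0.038, adjusted p = 6.14e-05). Of 17 ligands 5 rose and 7 fell: Col4a1, a basement membrane collagen, fell from 1267 and 1209 to 31 and 20 (−5.58, adjusted p = 0.000113), Vcam1 from 692 and 727 to 43 and 42 (−4.03, adjusted p = 4.47e-05), and Edil3 stood at 21 and 17 in floxed and 0 and 1 in KO cells. Of 14 actin links 3 rose and 5 fell, with Palld at 2234 and 2231 in floxed and 417 and 427 in KO cells (−2.40, adjusted p = 3.75e-05). Of 18 signalling genes 5 rose and 7 fell, among them the kinase Fyn (−1.45). Of 5 other integrin subunits 2 rose and 1, Itgb2, fell (−1.52). With each library left out in turn, 12 of 54 list and marker genes that passed did so throughout, Fermt1, Palld, Vcam1, Fyn, Cdh1 and Krt8 among them.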

How the data were processed

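The deposited values are scores: whole numbers per gene and library that read as featureCounts counts that the authors scaled by a library factor and rounded, with each cell type's table normalised separately. Per the submitters' processing notes, the tools were FastQC, STAR 2.5.3a, Subread, featureCounts 1.6.0 and DESeq2 1.14.1, with the mm10 build; the strand setting of the counting is not given in the sources used here, so genes overlapping on opposite strands may share reads. Per the labels' protocols, total RNA was made into stranded libraries. Because the values are not raw counts, the count test that had been planned was not used. Tests used limma 3.58.1 in R 4.3.3 (group means of all groups of a table, empirical Bayes with a trend, two-sided) on log2(value + 1) for genes with a mean of at least 1, with Benjamini-Hochberg adjustment and a threshold of 0.05; the residual degrees of freedom were 3 in ESCs and MEFs and 2 in MKFs. The fit was checked on simulated data. Depth is the summed value of a library, and low values carry counting error. Gene positions and exon lengths came from GENCODE M21 (GRCm38), promoters from RefSeq.

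The adhesion genes and the other lists were chosen with earlier results of these data known. Named with library values were the 8 adhesion genes that changed most in a comparison, every integrin that passed and the leading subunits per kilobase. Most of those that passed in opposite directions also have library values in at least 1 comparison. Vasp, Git1, Arhgef7, Enah and Lims1 are given with log2 fold changes only. Of each other list up to 3 that passed are named, and a few others were named after their values were seen. In ESCs libraries with the same number deviated together (correlations over 11369 genes of 0.49, 0.68 and 0.35), so values from a fit with the replicate number as a block stand beside those ESC results whose call it changes. In MEFs the correlations were 0.21 for KO with locus deletion, −0.30 for KO with wild type and −0.21 for locus deletion with wild type. In MKFs the correlation was −0.095. Same-numbered libraries there did not deviate together in every pair, and what the numbers mark is not given. Alternatives were other pseudocounts and filters, only the 4 libraries compared, other scalings, no trend, the block, and each library left out.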

Additional observations from a re-analysis of the deposited data

Results flagged for a closer look

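For 6 genes the Actg1 KO passed as lower and the locus deletion as higher in MEFs, against the same wild-type libraries. The difference between the mutants (KO minus locus deletion, log2) also passed in limma. That follows from the opposite calls by which these genes were picked and is no further test. These differences were −1.23 for Itga2, −1.46 for Itga3, −2.87 for Itga6, −1.34 for Itgav, −1.39 for Nedd9 and −1.73 for Lpp. Lpp lies on chromosome 16 and Itga6 and Itgav on chromosome 2, the chromosomes with the lowest medians in the KO, and the part of this was not tested.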

How the results depend on the processing

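The direction of every adhesion gene that passed held under all alternatives; 264 of these values stayed past the threshold and 152 did not in ESCs, 930 and 110 in MEFs, and 256 and 43 in MKFs. Where the groups compared did not overlap, leaving out 1 library could not change a direction. Without the trend, 4 genes passed in the Actb KO, 6 in the Actb locus deletion and 10 in the Actg1 locus deletion. Between the Actb mutants 0 passed in limma without the trend (6 at an unadjusted p below 0.05) and 0 with only the 4 libraries compared (12 at an unadjusted p below 0.05), and in the locus deletion 8 passed with only 4. With each library left out, counts were 0 to 0 in the Actb KO, 2 to 7 in the Actb locus deletion and 0 to 0 between these mutants. They were 17 to 24 in the Actg1 KO, 14 to 19 in its locus deletion, 24 to 28 between these mutants and 12 to 19 in the Kindlin-2 KO. The shares of all genes passing in these fits, without the trend or with the replicate block are not given here. The counts therefore do not show whether the adhesion genes lost calls more readily than other genes. The cause was not tested. Actb in the KO lost its call with any library left out (adjusted p = 0.134 to 0.215 in limma). With the replicate block 12, 19 and 5 passed in ESCs, 28, 20 and 29 in MEFs and 25 in MKFs. The block ended the calls of Itga3 in the Actg1 locus deletion (adjusted p = 0.071), of Ptk2b (0.0714) and Trip6 (0.0504) between the Actg1 mutants and of Ptk2 in MKFs (0.0612), added Zyx in MKFs (0.0478), and changed no other call beside those given for ESCs. With genes over 1 percent of a library left out of the sum, Itgb1 stood at 76.8 in wild-type ESCs, 350.4 in wild-type MEFs and 441 in floxed MKFs ppm per kilobase. Low values limit Itga1 in wild-type ESCs and Itga4 in MEF and MKF mutants.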
